A study of Arabidopsis thaliana with 4 samples.

Results

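The class III HD-ZIP transcription factors and the LITTLE ZIPPER (ZPR) proteins were followed in an RNA-seq comparison of Arabidopsis thaliana shoot apices from clv3 and mp clv3 plants. The set was chosen by gene identifier and holds 9 genes of the 27323 in the table: PHB, PHV, REV, HB15 (CORONA) and HB8 of class III HD-ZIP, and ZPR1, ZPR2, ZPR3 and ZPR4. The table has rows for 8 of them, and the expression of ZPR4 was not analysed here. In the reference annotation, the identifiers of all 9 genes carried these names or their synonyms.

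The labels describe 2 libraries of clv3 and 2 of mp clv3, all from adult plants of 6 weeks kept at 22 °C in days of 16 h light and 8 h dark, sampled as inflorescence apices without the older flowers. Both genotypes are labelled as mutant in CLV3, the gene of a secreted peptide that limits stem cells, and mp clv3 is in addition mutant in MP (MONOPTEROS), an auxin response factor. The growth description calls the double mutant mp319 clv3-7 but its other plants Col-0, and the name clv3 is used here as in the genotype labels. How many plants went into a library is not given. For each genotype the table holds 1 column of reads and 1 of RPKM, in which reads are divided by the length of the gene and by the depth of the column. No difference below could therefore be set against a spread between libraries.

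Class III HD-ZIP proteins bind DNA through a homeodomain, pair through a leucine zipper, and promote the upper (adaxial) side of organs, the shoot meristem and the pattern of vascular strands. Their mRNAs are cut under the guidance of the microRNAs miR165 and miR166, which confines them to the centre of the meristem, the adaxial side and the vasculature. ZPR proteins carry little more than a leucine zipper of the same kind. They pair with class III HD-ZIP proteins into complexes that do not bind DNA, and class III HD-ZIP proteins are known to activate ZPR genes, which closes a negative feedback loop. HB8 marks the precursor cells of vascular strands in leaves and has been described as a direct target of MP.

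The microRNA site is what the 5 class III HD-ZIP mRNAs share and the ZPR mRNAs lack, so both are shown. In the RefSeq annotation of TAIR10.1, 2 loci give miR165 and 7 give miR166, all with the same seed. The DNA letters of the mature forms are given 5′ to 3′, with the seed (bases 2 to 8) in capitals.
miR165a-3p: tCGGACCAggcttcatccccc
miR166a-3p: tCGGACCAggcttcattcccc
They differ by C17T, counted from the 5′ end with the base of miR165a-3p first.

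The matching stretch of each mRNA follows, on the mRNA strand, with capitals where it departs from the perfect complement of miR165a-3p.
PHB: TTgggatgaagcctggtccgG
PHV: TTgggatgaagcctggtccgG
REV: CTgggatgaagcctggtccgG
HB8: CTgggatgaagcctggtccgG
HB15: CTggAatgaagcctggtccgG
PHB and PHV share 1 site sequence and REV and HB8 share another. Counted from the 5′ end of the site, with the base of the complement first, HB15 departs from miR165a-3p at G1C, G2T, G5A and A21G. Against miR166a-3p, whose complement has the G5A letter of HB15, this site has 3 mismatches and the other 4 genes have 4. In each gene the site lies in the coding sequence and is split by an intron, with 11 bases in the first exon and 10 in the next. These are exons 4 and 5 in PHB, PHV, REV and HB15, and exons 5 and 6 in HB8. With the intron, the site spans chr2:14642530-14642666 on the minus strand in PHB and chr4:15866872-15866974 on the minus strand in HB8 (TAIR10.1).

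Of 26638 transcripts searched, these 5 alone matched miR165a-3p or miR166a-3p with at most 3 mismatches, and 12 genes did so with at most 4. The best ungapped match in ZPR1, ZPR2 and ZPR3 had 9 or 10 mismatches, and that in ZPR4 had 8. A match is a description of letters and shows no cutting. The loci of miR165 and miR166 have no row in the table and were not analysed here.

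Of the 8 measured genes, 7 were higher and 1 was lower in mp clv3 than in clv3. PHB, PHV, REV and HB15 rose between 1.51-fold and 2.70-fold, HB8 was 2.01-fold lower, and ZPR1, ZPR2 and ZPR3 rose between 3.89-fold and 9.61-fold. In the authors' deposited table these calls have a false discovery rate (FDR) under 0.05, but 26.4% of all genes were called higher and 46.3% lower at that threshold, so a call alone says little about a single member. At least 2-fold, 5 members were higher and 1 lower, against 9.33% and 18.5% of all genes. Among the 18832 genes that average 100 reads or more, as every member does, 6453 were called higher and 10044 lower. Both calls at an FDR under 0.05 were thus more frequent there than among all genes. By at least 2-fold, 1868 of these genes were higher and 2584 lower. Asking for at least 100 reads in the higher column could drop no member, since each had at least 349 reads in each column. It left 24.2% of all genes called higher and 38.3% lower. Counting intervals that leave out 1 after median scaling gave 7 and 1, against 30.4% and 34.9% of all genes. That scale lies -0.12 (log2) from that of the column totals. The member nearest to no change, REV, has a log2 ratio of 0.60, so no member could turn. The median log2 ratio of the 8 was 1.35, beside -0.11 for all 27322 genes.

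**Figure D1:**
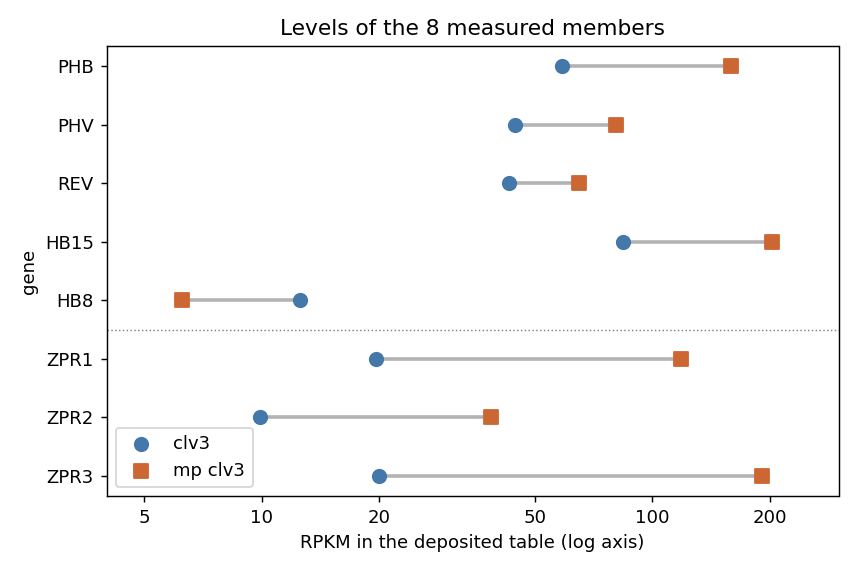
Level of each measured gene in the clv3 column (circles) and the mp clv3 column (squares), in RPKM on a log axis, with class III HD-ZIP genes above the dotted line and ZPR genes below it. HB8 is the gene whose square lies to the left of its circle, and the longest shift is that of ZPR3, from 19.9 to 191 RPKM.

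PHB (PHABULOSA, AT2G34710), an adaxial regulator active in the meristem, had 18055 reads in clv3, or 58.7 RPKM. In mp clv3 it had 50308 reads, or 159 RPKM. The fold was 2.70, and its 95% counting interval ran from 2.64 to 2.77. The authors' deposited table lists an FDR of 0 for this difference.

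HB15 (CORONA, AT1G52150), which limits meristem size together with PHB and PHV, stood at 84.2 RPKM in clv3 (28979 reads) and at 202 RPKM in mp clv3 (71713 reads). Its fold was 2.40 (2.36 to 2.45), and the authors' deposited table lists an FDR of 0. It had the most RPKM of the class III HD-ZIP genes in both columns. In mp clv3 its level lay above that of 98.1% of all genes.

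PHV (PHAVOLUTA, AT1G30490), the closest relative of PHB, stood at 44.5 RPKM in clv3 (13112 reads) and at 80.6 RPKM in mp clv3 (24458 reads). That is 1.81-fold higher (1.76 to 1.87), again with a listed FDR of 0 in the authors' deposited table. REV (REVOLUTA, AT5G60690), needed for axillary meristems and stem vasculature, went from 43.0 RPKM (15098 reads) to 64.9 RPKM (23503 reads). Its 1.51-fold rise (1.47 to 1.56), also with a listed FDR of 0, was the smallest among the 7 higher members. REV overlaps AT5G60700 on the other strand by 67 bases in TAIR10.1, and whether strand was used in counting is not given.

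HB8 (AT4G32880) went the other way. Its level was 12.5 RPKM in clv3 (3800 reads) and 6.23 RPKM in mp clv3 (1947 reads), a 2.01-fold lower level (1.86 to 2.17) with an FDR of 1.99e-145 in the authors' deposited table. Among the class III HD-ZIP genes it already had the lowest level in clv3. Its part of their summed RPKM went from 5.16% in clv3 to 1.21% in mp clv3.

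The order of levels per length was HB15, PHB, PHV, REV and HB8 in both columns. PHV and REV were nearest to each other in clv3, with a ratio of 1.04 and a counting interval from 1.002 to 1.07, and with RefSeq transcript lengths they stood at 42.4 and 42.5 RPKM, in the opposite order. Between neighbours in this order, the distance from HB15 to PHB was smaller in mp clv3, at 1.27 times (1.25 to 1.29) against 1.43 times in clv3 (1.40 to 1.47). The other 3 distances were larger. PHB stood 1.97 times above PHV in mp clv3, against 1.32 times in clv3, and PHV stood 1.24 times above REV. REV stood 10.4 times above HB8 (9.76 to 11.1), against 3.43 times in clv3 (3.26 to 3.61).

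The folds of the class III HD-ZIP genes were also compared with each other, as the ratio of 2 folds on read pairs. In all 10 pairs, and in all 3 pairs of ZPR genes, the 95% interval left out 1. These intervals hold counting error and no spread between libraries. The nearest pair was PHB and HB15, with a ratio of folds of 1.13 (1.09 to 1.16). PHB and PHV, which share the microRNA site and 84.4% of their aligned coding bases, differed by 1.49 (1.44 to 1.55). The largest difference was between PHB and HB8, at 5.44 (5.01 to 5.91). REV and HB8 have the same microRNA site, and the ratio of their folds was 3.04 (2.80 to 3.30).

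These genes are similar enough in sequence that shared reads were checked. Over the 36 pairs of the 9 genes, the longest identical stretch between mRNAs was 64 bases, in PHB and PHV, and 29 bases in the next longest case. Between a class III HD-ZIP gene and a ZPR gene it was at most 16 bases. Reads were 100 bases long, so no whole read matches 2 of these genes exactly in the reference.

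ZPR3 (AT3G52770), which holds class III HD-ZIP activity in check in the shoot meristem, rose most. It went from 19.9 RPKM (964 reads) to 191 RPKM (9546 reads), a 9.61-fold rise (8.75 to 10.6) with a listed FDR of 0 in the authors' deposited table. Among the 18832 genes that average 100 reads or more, 475 had a larger log2 ratio.

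ZPR1 (AT2G45450), a ZPR gene known to respond to REV, stood at 19.6 RPKM in clv3 (1483 reads) and at 119 RPKM in mp clv3 (9226 reads). The fold was 6.04 (5.59 to 6.54), with a listed FDR of 0 in the authors' deposited table, and 690 of the 18832 genes had a larger log2 ratio. ZPR2 (AT3G60890) went from 9.91 RPKM (349 reads) to 38.6 RPKM (1400 reads), a 3.89-fold rise (3.29 to 4.62) with an FDR of 1.19e-141 in the authors' deposited table. It was the least expressed ZPR gene in both columns.

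In clv3, ZPR3 and ZPR1 stood level, with a ratio of 1.01 and an interval from 0.902 to 1.14. In mp clv3, ZPR3 stood 1.61 times above ZPR1 (1.55 to 1.68). ZPR3 also passed REV and PHB: it was at 0.463 of the REV level and 0.339 of the PHB level in clv3, and 2.94 times and 1.20 times those levels in mp clv3. All these comparisons between genes depend on gene length. The deposited RPKM of ZPR3 rest on a model of 483 bases, while its first RefSeq transcript has 1004 bases. With RefSeq lengths ZPR3 stood at 0.626 of the ZPR1 level in clv3 (9.57 and 15.3 RPKM) and level with it in mp clv3 (92.0 and 92.3 RPKM), where PHB stood at 155 RPKM. Lengths cancel in the fold of a gene between genotypes.

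Summed over the 5 class III HD-ZIP genes, the level went from 243 RPKM in clv3 to 513 RPKM in mp clv3, 2.11-fold higher. Summed over ZPR1, ZPR2 and ZPR3 it went from 49.4 to 348 RPKM, 7.05-fold higher. The transcript sum of the inhibitors was thus 0.203 of the sum of the transcription factors in clv3 and 0.679 in mp clv3, a 3.34-fold change in their ratio. With RefSeq lengths the 2 values of that ratio were 0.135 and 0.424. HB15 and PHB made up 39.4% and 31.0% of the class III HD-ZIP sum in mp clv3, and ZPR3 made up 54.9% of the ZPR sum, up from 40.2% in clv3. These are transcript levels, and protein was not measured.

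**Figure D2:**
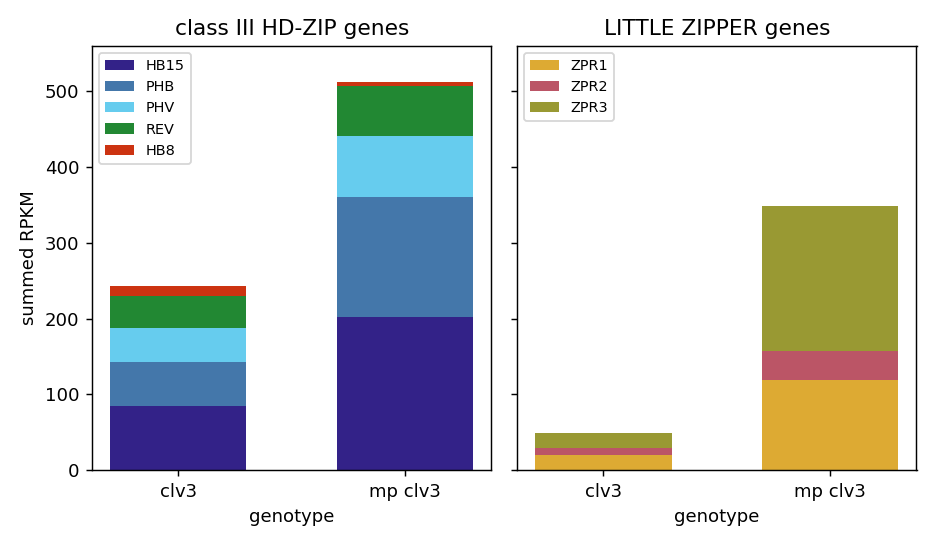
RPKM stacked by gene for the class III HD-ZIP genes (left) and the ZPR genes (right), with 1 bar per genotype on a common axis that starts at 0. The ZPR stack grows from 49.4 to 348 RPKM and the class III HD-ZIP stack from 243 to 513, while the HB8 segment shrinks.

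The apices of the genotypes differed in tissue markers, and in bulk samples fewer cells of a type and less RNA per cell cannot be told apart. The authors' deposited table calls 3 of 5 meristem markers higher and 2 lower, beside 26.4% and 46.3% of all genes. The summed level of these markers went from 183 to 304 RPKM. WUS, which maintains stem cells, was 3.83-fold higher (3.40 to 4.31), STM, which keeps meristem cells undifferentiated, 2.20-fold (2.14 to 2.26) and CLV1, a CLV3 receptor, 1.99-fold (1.91 to 2.07). KNAT1, of the same homeobox family as STM, was 3.77-fold lower. All 11 tapetum and pollen markers were lower, from a sum of 955 to 14.0 RPKM, with MS2 at 19785 reads in clv3 and 0 in mp clv3 and A6 at 34757 and 8 reads. All 6 ovule and carpel markers were called lower too, from a sum of 122 to 10.6 RPKM, with CRC at 9151 and 23 reads and STK at 377 and 0. They were not alike: SHP1 was 1.30-fold lower (1.16 to 1.45). INO had 10 and 0 reads, and the counting interval of its fold (0 to 1.06) holds 1. The part of tissue makeup in the members' differences was not tested.

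Set against meristem markers, the members divided. When the columns were scaled by the reads of STM and CLV1 instead of all reads, ZPR3 was 4.52-fold, ZPR1 2.84-fold and ZPR2 1.83-fold higher in mp clv3. PHB (1.27-fold) and HB15 (1.13-fold) stayed just above 1. PHV and REV turned to 0.852 and 0.711 of their clv3 level, and HB8 stood at 0.234. STM and CLV1 were picked after their values were seen, and KNAT1 and KNAT2 of the same list were lower in mp clv3. A scale from the summed reads of all 5 meristem markers still rests mostly on STM and CLV1, which hold most of these reads. With it, PHV was 1.12-fold higher and REV stood at 0.937 of its clv3 level, so the direction of both depends on the reference taken. PHB was then 1.68-fold, HB15 1.49-fold and ZPR3 5.96-fold higher, and HB8 stood at 0.308. The median of the 18832 genes that average 100 reads or more and TMM factors left every member in its direction, with a scale that lay -0.12 and -0.15 (log2) from that of the column totals.

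**Figure D3:**
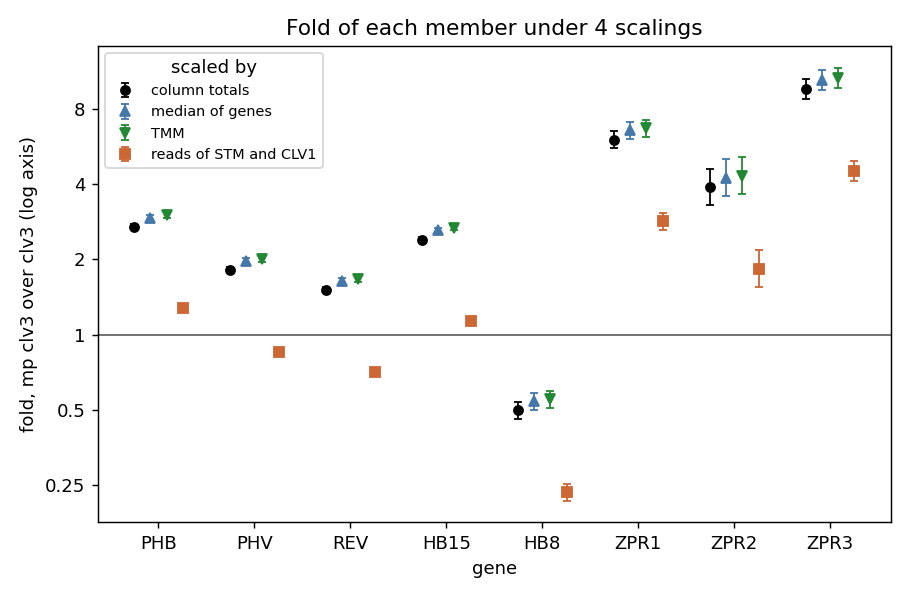
Fold of each member (mp clv3 over clv3, log axis) with the columns scaled by their totals, by the median of genes that average 100 reads or more, by TMM factors, or by the reads of STM and CLV1. Bars are 95% counting intervals, without any spread between libraries, and PHV and REV cross the line at 1 with the last scaling.

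The gene targeted in mp clv3 was checked in the same table. MP stood at 74.8 RPKM in clv3 (25336 reads) and at 14.5 RPKM in mp clv3 (5063 reads), a 5.15-fold lower level (4.94 to 5.38). CLV3 had 110 and 1278 reads, which does not tell the labels apart since both genotypes are labelled clv3.

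The lower level of HB8 came with lower levels of most vascular markers. The authors' deposited table calls 7 of 8 xylem markers lower and 1 higher, beside 46.3% and 26.4% of all genes. Their summed level went from 76.2 to 27.8 RPKM, and none was at 0. LAC4, a lignin laccase, was 4.87-fold (4.14 to 5.74) and the xylem peptidase XCP2 3.10-fold lower (2.87 to 3.35). The xylem marker that went the other way was VND7, 3.05-fold higher in mp clv3 (2.02 to 4.73), with 62 and 195 reads. Both phloem markers were lower, APL by 1.498-fold and SUC2 by 1.63-fold. The part of vascular tissue in the HB8 difference was not tested.

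Vascular genes linked to MP went both ways: the authors' deposited table calls 3 of 9 higher and 6 lower. Of all genes, 26.4% were called higher and 46.3% lower. The median log2 ratio of the 9 was -0.45. TMO6, a DOF-type gene of the vasculature named as a target of MP, was 2.84-fold higher (2.71 to 2.99). DOF5.8, of the same family and likewise described downstream of MP, was 5.94-fold lower (4.77 to 7.46).

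The promoter of HB8 was chosen after its fold was seen, because MP is an auxin response factor and HB8 was lower in its mutant. These are the 250 bases before the annotated start, chr4:15868651-15868900 on the minus strand of TAIR10.1, written 5′ to 3′ in the direction of transcription.
HB8: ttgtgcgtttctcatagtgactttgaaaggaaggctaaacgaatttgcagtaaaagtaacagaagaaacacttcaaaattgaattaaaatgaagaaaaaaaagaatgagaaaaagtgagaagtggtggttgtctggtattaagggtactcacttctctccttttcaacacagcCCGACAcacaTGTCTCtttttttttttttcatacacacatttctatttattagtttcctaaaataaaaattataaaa
Capitals mark TGTCTC and TGTCGG, letters known to be bound by auxin response factors, searched on both strands. TGTCGG lies on the opposite strand (CCGACA as printed, from -77), TGTCTC starts at -67, and 4 bases lie between them. TGTCTC is in 10.9% and TGTCGG in 4.15% of the 26643 promoters of this length, and both are in 0.424%. Of the other member promoters, that of ZPR4 has TGTCTC and those of the remaining 7 have neither. No other letters were searched, so tgtctg, which the printed HB8 stretch also holds, is in lower case and was not counted in any promoter. Binding was not measured, and letters outside this window were not searched. The part of these letters in the HB8 difference was not tested.

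Genes that act on miR165 and miR166 differed by at most 1.64-fold. The authors' deposited table calls 2 of 7 such genes higher and 5 lower, beside 26.4% and 46.3% of all genes. None of the 7 differed by 2-fold, and their median log2 ratio was -0.25. AGO10, which binds miR165 and miR166 and keeps them from AGO1, was 1.26-fold higher (1.24 to 1.29), and went from 94.8 to 120 RPKM. AGO1, the slicer, was 1.19-fold lower (1.17 to 1.21). The largest differences were in DCL1, which cuts microRNA precursors, 1.64-fold lower (1.57 to 1.72), and HEN1, which methylates microRNAs, 1.41-fold lower (1.32 to 1.51).

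Of a list of 6 genes reported elsewhere as targets of class III HD-ZIP proteins, the authors' deposited table calls 4 higher and none lower. The list leaves out the class II genes known from REV studies, given below, of which HAT3, HB2 and HAT2 were higher and HB4 was lower. The shares of all genes were 26.4% and 46.3%, and the median log2 ratio of the 6 was 0.79. TAA1, an enzyme of auxin synthesis, was 3.35-fold higher (3.21 to 3.51) and WRKY53, a regulator of senescence and defence, 3.07-fold (2.79 to 3.38). STM is on this list as well as among the meristem markers. CIPK12, a protein kinase, was 1.37-fold higher, PYL6, an abscisic acid receptor, had 480 and 532 reads with an FDR of 0.271, and YUC5 had 0 reads in both columns. Of the genes whose proteins partner with class III HD-ZIP proteins, DRN, an AP2-type factor of the shoot tip, was 12.2-fold higher (10.5 to 14.2). Its relative DRNL went from 57 to 10 reads.

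Counts in the other HD-ZIP classes stand beside those of class III without a test of the difference. Class II genes act beside class III in adaxial fate and in shade responses. The authors' deposited table calls 5 of 10 higher and 4 lower, beside 26.4% and 46.3% of all genes. The median log2 ratio of the 10 was -0.0026. Class II members known from REV studies parted. HAT3 was 2.21-fold (2.08 to 2.36), HB2 1.83-fold and HAT2 1.18-fold higher, while HB4 was 1.82-fold lower (1.62 to 2.06). HAT9 fell from 899 to 19 reads and HB17 from 156 to 53.

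Of 17 class I genes, many of which respond to water and light, 2 were higher and 13 lower, with a median of -0.44. The class I genes HB54 (280 and 6 reads) and HB51 (260 and 15 reads) were lowest relative to clv3. Of 16 class IV genes, which act in the epidermis, 3 were higher and 8 lower, with a median of -0.39. HDG2 was 2.83-fold (2.57 to 3.12) and HDG1 2.66-fold lower (2.50 to 2.84). All these calls are those of the authors' deposited table, which calls 26.4% of all genes higher and 46.3% lower.

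Adaxial and abaxial regulators outside the family were mostly lower. AS1, AS2 and AGO7 of the adaxial side were all lower in the authors' deposited table. AS2 went from 929 to 4 reads, and AS1, its partner, was 2.51-fold lower (2.41 to 2.61). Of 12 abaxial genes, 2 were higher and 10 lower, beside 26.4% and 46.3% of all genes. By at least 2-fold, 9 were lower, and the median log2 ratio of the 12 was -3.13. CRC and INO (10 and 0 reads) are on this list as well as among the ovule and carpel markers. YAB2 had 1967 and 2 reads and CRC had 9151 and 23. In the same apices PHB, PHV, REV and HB15 were higher and HB8 was lower, with the scaling above as the limit for PHV and REV. The tapetum, pollen, ovule and carpel markers were lower too, and the part of tissue makeup in this contrast was not tested.

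**Figure D4:**
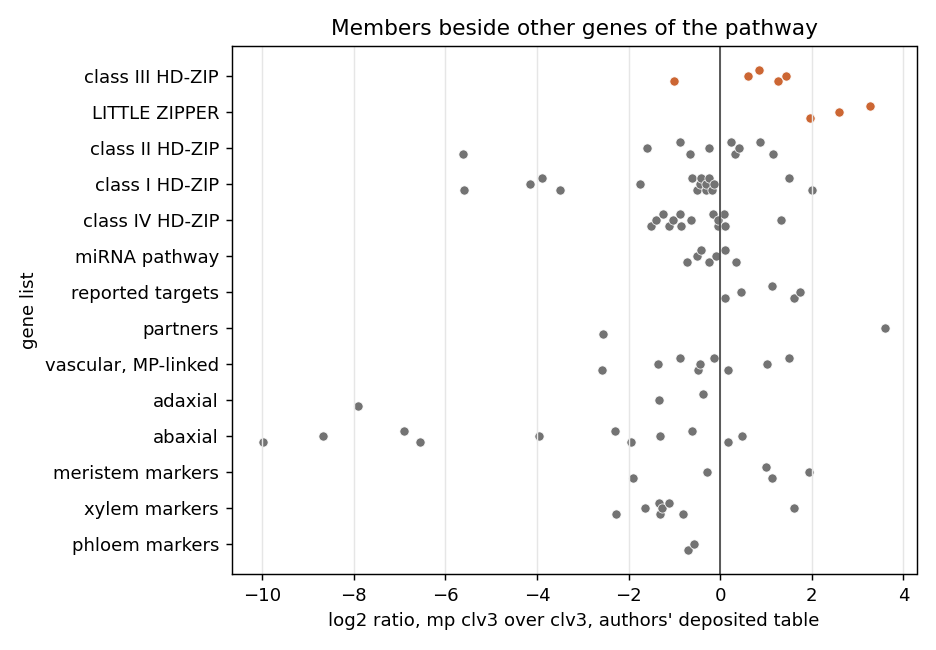
Log2 ratio of mp clv3 over clv3 in the authors' deposited table for the members and the other lists except the tapetum and pollen and the ovule and carpel markers, with 1 point per gene that has reads in both columns and a small vertical offset for legibility. The ZPR points lie between 1.96 and 3.26, HB8 is the class III point at -1.01, and the abaxial genes reach -9.98.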

How the data were processed

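Poly(A) RNA of shoot apices was sequenced as strand-specific read pairs, per the labels' protocols. Per the submitters' processing notes, the tools were CASAVA 1.7 and BWA and the build was TAIR10. The authors deposited 1 column of reads per gene (treated here as estimated counts) and 1 of RPKM per genotype, with 0 reads written as 0.5 (read as 0 here). They also deposited a log2 ratio and an FDR (an adjusted p-value), whose test is not given in the sources used here. How the 2 libraries of a genotype were combined, and whether strand was used, is not stated. The count columns held 100328819 reads (clv3) and 103347441 (mp clv3). The row of AT1G01010, whose cells are shifted, was not used.

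The planned fit across libraries was not possible with 1 column a genotype, so calls are the authors' deposited FDR under 0.05. Folds were computed from reads and column totals. Their Clopper-Pearson 95% intervals were computed on read pairs (reads divided by 2), since 83.3% and 82.5% of counts from 1 to 9 were even. They cover counting error only. On read pairs simulated with counting error alone, 93.5% of 200 intervals held the true fold, which checks the computation and not the spread of these data. Ratios of folds are conditional odds ratios. Sequences, exons and coordinates came from RefSeq TAIR10.1 with its own annotation. The deposited table has no coordinates. RefSeq names matched 26643 identifiers. Target sites were the best ungapped match in the first transcript of each gene.

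The members and lists were chosen with earlier results of these data known. Named are all members, MP, CLV3 and, in each list, the 2 genes with the largest log2 ratio, of either sign, among those with at least 100 reads in the higher column. All other genes were named after their values were seen. TMM factors came from edgeR 4.0.16, all else from Python 3.11.15 with scipy 1.17.1 and biopython 1.88.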

Additional observations from a re-analysis of the deposited data

How the results depend on the processing

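No paired analysis was possible because the table gives 1 column per genotype and no replicate numbers, and for the same reason no library could be left out. Scaling by STM and CLV1 or by all 5 meristem markers and RefSeq lengths were chosen after the data were seen. Of 56 log2 values of the members under other scalings and pseudocounts, 53 kept their direction. Only the scalings by meristem markers could turn a member. The others shift log2 by at most 0.15, where the member nearest to no change, REV, has 0.60, and pseudocounts keep the sign. The 3 that turned were PHV at -0.23 and REV at -0.49 with scaling by STM and CLV1, which are themselves higher in mp clv3, and REV at -0.094 with all 5 meristem markers. The 7 higher members and 1 lower were kept with at least 100 reads or with median scaling. Neither rule could drop or turn a member, and with at least 2-fold 5 and 1 remained. Asking for 2-fold took all genes from 7206 to 2549 higher and from 12651 to 5044 lower, and the genes of the lists other than members, tissue markers, MP and CLV3 from 22 to 10 higher and from 50 to 26 lower. The class III HD-ZIP sum (2.11-fold) was 2.30-fold with median scaling and 2.34-fold with TMM. It was 1.92-fold without PHB, 2.18 without PHV, 2.24 without REV, 1.96 without HB15 and 2.20 without HB8. The ZPR sum (7.05-fold) was 7.67-fold with median scaling, 7.81-fold with TMM and 6.65-fold with RefSeq lengths. It was 7.71-fold without ZPR1, 7.84 without ZPR2 and 5.32 without ZPR3. The change in the ratio of the sums (3.34-fold) was 3.15-fold with RefSeq lengths and without REV. It was 3.67 without PHB, 3.60 without HB15, 3.65 without ZPR1, 3.71 without ZPR2 and 2.52 without ZPR3. Depth did not limit the members, which had at least 349 reads in each column.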
